A study of Homo sapiens with 12 samples.

Results

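The genes described here build and operate the mitotic spindle, the kinetochore and the machinery of cytokinesis. They came from a list of 45 gene symbols that leaves out kinesins and Aurora kinases, and each gene was represented by its brightest transcript cluster. Of these, 36 were measured, out of 14884 genes in all. The other 9 (CENPE, CENPF, NUF2, SPC24, SPC25, ANLN, DLGAP5, ASPM and UBE2C) were not analysed here. RNA was hybridised to 12 Human Gene 2.0 ST arrays from HCC70 and MDA-MB-231, both established human triple-negative breast cancer cell lines, with 3 arrays in each of 4 groups. The groups were HCC70 with JQ1, HCC70 with vehicle, MDA-MB-231 with JQ1 and MDA-MB-231 with vehicle. JQ1, a small molecule that blocks the bromodomains of the BET proteins, was given at 500 nM, the vehicle was DMSO at 0.1%, and both exposures lasted 72 hours. Each is a single established line. The labels do not state whether a group's 3 arrays represent independently grown cells, and the p-values therefore cover only array-to-array spread, which may be technical.

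Mitosis begins when CDK1 bound to a B-type cyclin phosphorylates its substrates, and the duplicated chromosomes then attach to spindle microtubules through kinetochores assembled on centromeres marked by the histone variant CENPA. The spindle checkpoint holds back the anaphase-promoting complex and its activator CDC20 until every kinetochore is attached, after which securin and the cyclins are degraded, separase opens the cohesin rings and the cell divides at the spindle midzone. Most of these genes are transcribed in G2 and mitosis, and many of their promoters carry CCAAT boxes, which NF-Y binds, and a cell cycle genes homology region (CHR), which MuvB complexes such as DREAM bind.

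Promoter sequences were available for 38 of the 45 listed genes and for 30 of the 36 measured ones, from RefSeq on GRCh38.p14, each running from 250 bases before to 50 bases after an annotated transcription start. They were searched on both strands for the CHR (TTTGAA), a CHR variant (TTTAAA, which reads the same on both strands) and the CCAAT box (CCAAT). Neighbouring matches may share bases, and each was counted. A CHR was found in 18 of the 30 promoters (60.0%), against 11.8% of the promoters of all 10749 measured genes that had one. A CCAAT box was found in 24 (80.0%), against 36.0%, and 2 or more of them in 14 (46.7%), against 12.4%. A CHR or its variant lay within 50 bases of the start in 17 (56.7%), against 5.44%. Counted over any listed window of a gene rather than the first alone, it did so in 19 (63.3%), against 7.59%.

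The promoters shown first belong to the genes with the largest falls under JQ1 in MDA-MB-231 for which a promoter was available: DEPDC1 (chr1:68497033-68497332, minus strand), NDC80 (chr18:2571307-2571606, plus strand) and CCNB2 (chr15:59104896-59105195, plus strand). The sequences run 5′ to 3′ along the gene's strand, and capitals mark the matches, with TTCAAA and ATTGG as the reverse-strand forms of the CHR and the CCAAT box. CCNB2 held 4 CCAAT boxes, 1 CHR and 1 variant, DEPDC1 held 1 CCAAT box and 1 CHR, and NDC80 held 1 CHR.
DEPDC1: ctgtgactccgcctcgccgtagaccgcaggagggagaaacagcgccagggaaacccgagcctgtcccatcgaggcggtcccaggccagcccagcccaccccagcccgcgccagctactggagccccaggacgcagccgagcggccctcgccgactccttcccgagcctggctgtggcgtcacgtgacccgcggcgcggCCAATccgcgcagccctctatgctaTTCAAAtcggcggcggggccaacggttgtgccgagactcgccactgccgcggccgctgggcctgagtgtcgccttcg
NDC80: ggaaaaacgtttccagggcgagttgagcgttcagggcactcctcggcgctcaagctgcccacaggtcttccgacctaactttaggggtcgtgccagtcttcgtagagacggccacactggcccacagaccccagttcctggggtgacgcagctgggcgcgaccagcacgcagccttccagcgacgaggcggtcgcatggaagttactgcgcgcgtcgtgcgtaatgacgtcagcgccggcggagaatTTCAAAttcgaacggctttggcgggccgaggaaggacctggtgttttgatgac
CCNB2: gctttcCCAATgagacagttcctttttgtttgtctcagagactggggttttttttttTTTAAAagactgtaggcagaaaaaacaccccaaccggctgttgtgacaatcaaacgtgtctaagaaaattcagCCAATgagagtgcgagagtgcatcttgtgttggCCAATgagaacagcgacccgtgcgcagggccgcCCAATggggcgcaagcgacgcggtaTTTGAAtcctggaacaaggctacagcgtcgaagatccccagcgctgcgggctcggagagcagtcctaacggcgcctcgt

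The remaining promoters belong to the genes with the smallest change under JQ1 in HCC70 for which a promoter was available: CENPI (chrX:101100808-101101107, plus strand), CENPN (chr16:81006964-81007263, plus strand) and CKAP2 (chr13:52455738-52456037, plus strand). CENPN held 1 CCAAT box and 1 CHR. No match was found in the windows of CENPI and CKAP2, whose start sites in the table lie 2854 and 510 bases downstream of the first annotated base of the gene.
CENPI: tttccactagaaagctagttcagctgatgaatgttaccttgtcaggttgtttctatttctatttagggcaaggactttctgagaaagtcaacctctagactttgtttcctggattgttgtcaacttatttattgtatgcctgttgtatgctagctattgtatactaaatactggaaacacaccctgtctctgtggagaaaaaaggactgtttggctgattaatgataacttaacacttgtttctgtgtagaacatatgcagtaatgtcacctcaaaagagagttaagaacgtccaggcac
CENPN: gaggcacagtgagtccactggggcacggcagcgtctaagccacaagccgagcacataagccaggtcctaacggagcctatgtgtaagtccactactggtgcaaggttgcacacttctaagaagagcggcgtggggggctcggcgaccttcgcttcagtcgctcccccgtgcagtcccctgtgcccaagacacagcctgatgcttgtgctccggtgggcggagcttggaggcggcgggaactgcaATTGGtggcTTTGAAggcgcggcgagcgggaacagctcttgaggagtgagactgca
CKAP2: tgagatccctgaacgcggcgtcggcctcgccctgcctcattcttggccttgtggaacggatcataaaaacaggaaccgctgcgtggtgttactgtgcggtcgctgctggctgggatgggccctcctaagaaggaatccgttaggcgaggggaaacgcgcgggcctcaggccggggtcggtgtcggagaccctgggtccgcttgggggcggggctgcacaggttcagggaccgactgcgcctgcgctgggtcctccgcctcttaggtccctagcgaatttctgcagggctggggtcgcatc

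The values are log2 signals as deposited. Over all genes the array medians lay between 6.16 and 6.26, and arrays of a group correlated at 0.989 to 0.995. In 3 of the 4 groups (HCC70 with JQ1, MDA-MB-231 with JQ1 and MDA-MB-231 with vehicle) the array numbered 3 had the lowest upper quartile and the highest lower quartile of its group, and results are given without these 3 arrays where they change. Most epithelial markers set HCC70 apart: 0 of 7 measured were below the lower quartile of genes in HCC70, against 3 of 7 in MDA-MB-231 (KRT5, ESRP1 and GRHL2). KRT8 (7.40 against 7.15) and KRT18 (10.68 against 10.41) went the other way, higher in MDA-MB-231 vehicle than in HCC70 vehicle. Of 6 measured mesenchymal markers 2 were below the lower quartile in HCC70 (ZEB1 and TWIST1), against 1 in MDA-MB-231 (TWIST1). Of 2 measured hormone receptors, PGR was below it in all 4 groups, and ESR1 (means of 4.89 to 5.09) was not. Of 4 measured markers of other cell types, LYZ and PECAM1 were below it in all 4 groups, and the fat cell marker PLIN1 (means of 5.55 to 5.76) and the monocyte marker CD14 were not. CD14 had means of 8.14 and 8.52 in HCC70 with JQ1 and vehicle. In such bulk RNA, fewer cells in mitosis and less RNA per cell cannot be told apart.

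With JQ1 most of these genes were lower in HCC70, and every measured one was lower in MDA-MB-231. In HCC70, 25 of 36 fell (limma, adjusted p under 0.05 over all genes), against 12.5% of all genes, and 0 rose, against 9.18% of all genes. In MDA-MB-231 all 36 fell, against 17.0% of all genes. The median change of the 36 genes (log2, JQ1 minus vehicle) was -0.50 in HCC70 and -1.81 in MDA-MB-231, where the medians of all genes were 0.01 and 0.02. A fall of at least 1 on the log2 scale was found for 5 of 36 genes in HCC70, against 1.96% of all genes, and for 33 of 36 in MDA-MB-231, against 3.55%.

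The same contrast was visible array by array. The median log2 signal of the 36 genes was 8.05, 7.94 and 7.80 on the HCC70 arrays with JQ1, against 8.68, 8.82 and 8.71 with vehicle. It was 6.70, 6.53 and 6.48 on the MDA-MB-231 arrays with JQ1, against 8.63, 8.61 and 8.52 with vehicle. The vehicle arrays of both lines lay close together, the JQ1 arrays of MDA-MB-231 lay lowest, and JQ1 and vehicle arrays did not overlap in either line. Gene by gene, the 3 JQ1 arrays all lay below the 3 vehicle arrays for 27 of 36 genes in HCC70 (19.6% of all genes) and for all 36 in MDA-MB-231 (21.3% of all genes).

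**Figure D1:**
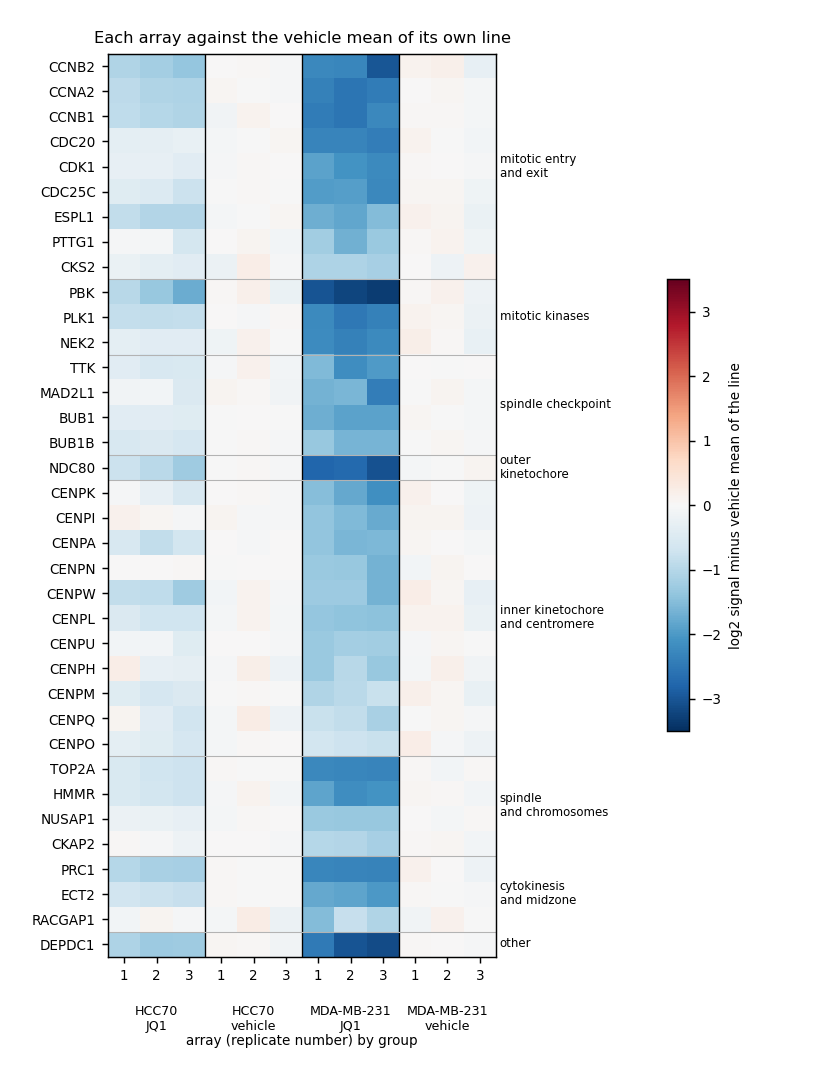
Heat map of the log2 signal of each of the 36 genes (rows, grouped by role) on each of the 12 arrays (columns), minus the vehicle mean of the same line, with blue below and red above that mean. The MDA-MB-231 JQ1 columns are blue in every row, while the HCC70 JQ1 columns are paler and near white for CENPN, CENPI and RACGAP1.

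How many genes of the whole table rose or fell depends on the scaling between arrays. Of all called genes, 57.7% were lower in HCC70 with JQ1 as deposited and 43.9% once arrays were centred on their medians, and in MDA-MB-231 the shares were 61.2% and 48.9% (48.6% after quantile normalization). For the mitotic genes the count that fell in HCC70 was 21 after centring and 25 after quantile normalization, and in MDA-MB-231 it was 36 under both. NEK2, CDK1, CDC20 and NUSAP1 were the HCC70 calls lost by centring, and these and TTK were lost when all transcript clusters were tested together.

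The mitotic kinases had the largest median fall of any role with more than 1 measured gene, -0.85 in HCC70 and -2.37 in MDA-MB-231, and all 3 fell in both lines. This role, named by hand, holds PBK, PLK1 and NEK2, and the kinases CDK1, TTK and BUB1 are counted under other roles. The ranking depends on that grouping. PBK, a kinase active in dividing cells, fell furthest of all 36 genes in both lines. Its log2 signal was 5.85, 5.50 and 5.10 in HCC70 with JQ1, against 6.87, 7.02 and 6.60 with vehicle. It was 6.12, 5.92 and 5.82 in MDA-MB-231 with JQ1, against 9.18, 9.28 and 8.95 with vehicle. The groups did not overlap in either line, and PBK started lower in vehicle-treated HCC70 than in vehicle-treated MDA-MB-231. The log2 change was -1.35 ± 0.18 in HCC70 (SE, 3 arrays a group; 2.54-fold, limma adjusted p = 0.00012) and -3.18 ± 0.18 in MDA-MB-231 (9.08-fold, limma adjusted p = 4.8e-08).

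PLK1, the Polo-like kinase that acts at centrosomes, kinetochores and the midzone, changed by -0.85 ± 0.10 in HCC70 and -2.37 ± 0.10 in MDA-MB-231. NEK2, which drives centrosome separation, had log2 signals of 8.10, 8.06 and 8.05 in HCC70 with JQ1, against 8.31, 8.61 and 8.43 with vehicle. It had 5.39, 5.24 and 5.38 in MDA-MB-231 with JQ1, against 7.80, 7.64 and 7.34 with vehicle. The arrays did not overlap in either line, but the gap was far wider in MDA-MB-231. NEK2 changed by -0.38 ± 0.12 in HCC70 (limma adjusted p = 0.035) and by -2.26 ± 0.12 in MDA-MB-231 (limma adjusted p = 2.9e-08). The HCC70 call was lost when any 1 HCC70 array other than vehicle replicate 1 was left out, with limma adjusted p of up to 0.15.

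Of the 9 measured genes of mitotic entry and exit, 7 fell in HCC70 (median of the 9, -0.55) and 9 in MDA-MB-231 (median -2.07). The cyclins led. CCNB2, a B-type cyclin that activates CDK1, had log2 signals of 7.95, 7.80 and 7.63 in HCC70 with JQ1, against 9.01, 9.03 and 8.94 with vehicle. It had 6.10, 6.07 and 5.37 in MDA-MB-231 with JQ1, against 8.48, 8.53 and 8.05 with vehicle. The groups did not overlap, and the array numbered 3 was the lowest of each group. CCNB2 changed by -1.20 ± 0.18 in HCC70 (limma adjusted p = 0.00041) and by -2.51 ± 0.18 in MDA-MB-231 (limma adjusted p = 4.8e-07).

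CCNA2, cyclin A, which acts in S phase and at mitotic entry, changed by -1.01 ± 0.08 in HCC70 and -2.46 ± 0.08 in MDA-MB-231, and the B-type cyclin CCNB1 by -0.98 ± 0.10 and -2.41 ± 0.10. ESPL1, the protease separase that cleaves cohesin at anaphase, changed by -0.97 ± 0.12 in HCC70 and -1.67 ± 0.12 in MDA-MB-231. CDC25C, the phosphatase that removes inhibitory phosphates from CDK1, changed by -0.55 ± 0.12 in HCC70 and -2.05 ± 0.12 in MDA-MB-231. In each of these 4 genes the fall in HCC70 was the smaller one.

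CDK1, the kinase that drives mitotic entry, and CDC20, the activator of the anaphase-promoting complex, fell little in HCC70. CDC20 had log2 signals of 10.33, 10.38 and 10.41 in HCC70 with JQ1, against 10.61, 10.68 and 10.76 with vehicle. In MDA-MB-231 it had 7.77, 7.77 and 7.65 with JQ1, against 10.21, 10.06 and 9.98 with vehicle. The HCC70 groups were close but did not overlap, and the MDA-MB-231 groups were far apart. CDC20 changed by -0.31 ± 0.09 in HCC70 (limma adjusted p = 0.02) and by -2.35 ± 0.09 in MDA-MB-231 (limma adjusted p = 2.9e-09). CDK1 changed by -0.33 ± 0.09 (limma adjusted p = 0.025) and by -2.07 ± 0.09 (limma adjusted p = 1.1e-08). Both HCC70 calls were lost without JQ1 replicate 2, vehicle replicate 2 or vehicle replicate 3 of HCC70, that of CDC20 also without JQ1 replicate 1 and that of CDK1 also without JQ1 replicate 3, with limma adjusted p of up to 0.087 and 0.085.

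CKS2, a small CDK-binding subunit, had the smallest fall of this role in MDA-MB-231. Its log2 signal was 9.90, 9.79 and 9.74 in HCC70 with JQ1, against 9.92, 10.38 and 10.10 with vehicle. It was 9.18, 9.19 and 9.10 in MDA-MB-231 with JQ1, against 10.27, 10.09 and 10.43 with vehicle. The JQ1 arrays lay below the vehicle arrays in both lines, with 9.90 and 9.92 the closest pair in HCC70. CKS2 changed by -1.10 ± 0.12 in MDA-MB-231, and its value of -0.32 in HCC70 (95% interval -0.58 to -0.06) did not pass the test after adjustment (limma adjusted p = 0.077). It passed under 4 of 22 alternatives, which were trend and robust moderation, genes above the median level, array weights, and leaving out HCC70 vehicle replicate 1 (limma adjusted p of 0.011 to 0.032). PTTG1, securin, the inhibitor of separase, fell by 1.41 in MDA-MB-231, and its value in HCC70 was -0.24 (95% interval -0.60 to 0.11). PTTG1 was dim in HCC70, with means of 5.68 with JQ1 and 5.92 with vehicle. The medians of all genes on those arrays were 6.16 to 6.26. Whether the low signal hid a change was not tested.

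The checkpoint genes had medians of -0.45 in HCC70, where 3 of 4 fell, and -1.85 in MDA-MB-231, where all 4 fell. TTK, the kinase that starts checkpoint signalling at kinetochores, had log2 signals of 8.39, 8.24 and 8.25 in HCC70 with JQ1, against 8.75, 8.93 and 8.69 with vehicle. MDA-MB-231 arrays read 7.18, 6.54 and 6.73 with JQ1, against 8.74, 8.70 and 8.73 with vehicle. The groups did not overlap, and the spread was widest among the MDA-MB-231 JQ1 arrays. TTK changed by -0.50 ± 0.14 in HCC70 (limma adjusted p = 0.02) and by -1.91 ± 0.14 in MDA-MB-231 (limma adjusted p = 4.5e-07). The HCC70 call was lost without the 3 arrays numbered 3 (limma adjusted p = 0.087), and without vehicle replicate 2, JQ1 replicate 2 or JQ1 replicate 3 of HCC70.

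BUB1B, the checkpoint protein BubR1 that binds and inhibits CDC20, had log2 signals of 7.78, 7.82 and 7.74 in HCC70 with JQ1, against 8.32, 8.37 and 8.30 with vehicle. In MDA-MB-231 it had 6.44, 6.14 and 6.15 with JQ1, against 7.77, 7.84 and 7.72 with vehicle. The groups were tight and did not overlap in either line. BUB1B changed by -0.55 ± 0.09 in HCC70 and -1.53 ± 0.09 in MDA-MB-231, and BUB1, a kinase that recruits other checkpoint proteins, by -0.41 ± 0.08 and -1.81 ± 0.08. MAD2L1, the Mad2 protein that joins BubR1 in inhibiting CDC20, fell by 1.89 in MDA-MB-231. Its HCC70 value was -0.24 (95% interval -0.65 to 0.17, limma adjusted p = 0.47), and the HCC70 arrays overlapped.

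**Figure D2:**
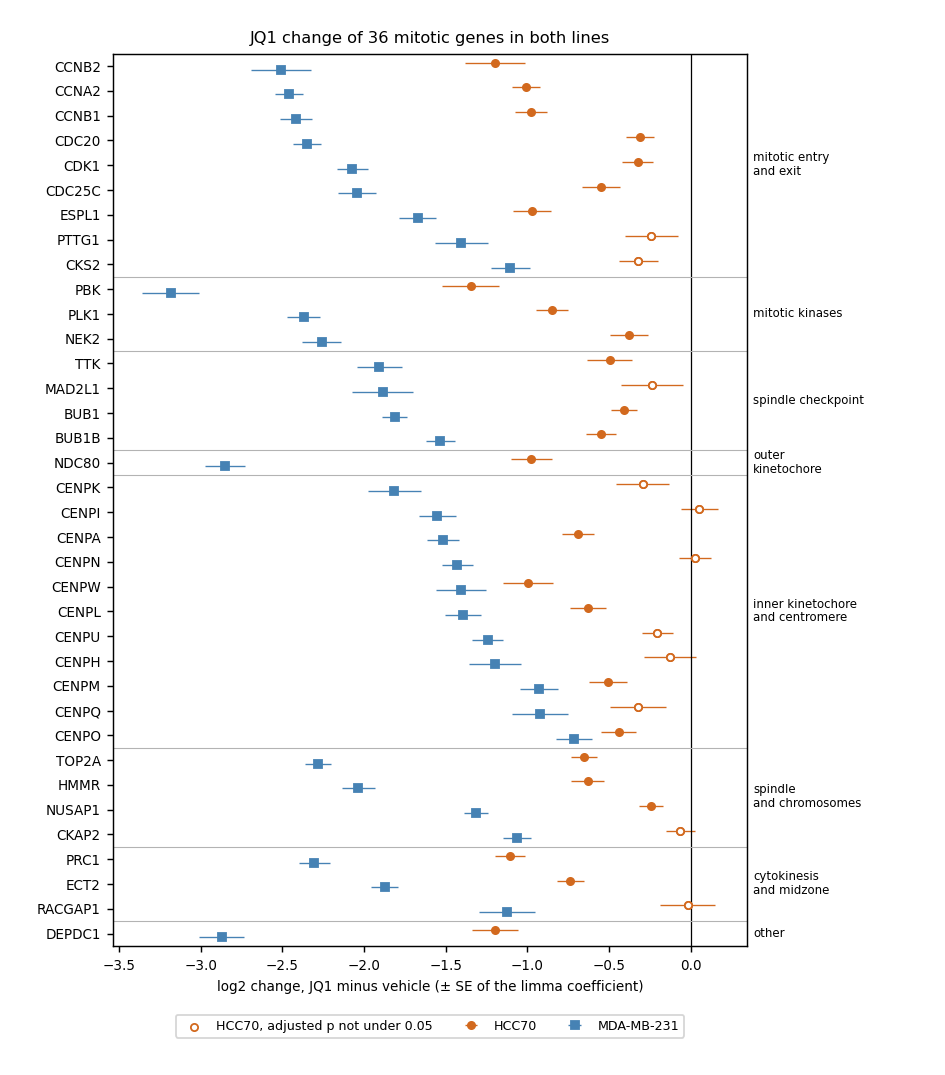
Log2 change (JQ1 minus vehicle, x axis) of each of the 36 genes, grouped by role (y axis), in HCC70 (circles, open where the adjusted p was not under 0.05) and MDA-MB-231 (squares), with bars of 1 standard error of the limma coefficient. Every square lies left of 0, from -3.18 for PBK to -0.72 for CENPO, and every circle lies right of the square of the same gene.

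NDC80, the microtubule-binding protein of the outer kinetochore, was the only one of 6 listed outer kinetochore and corona genes that was measured. The log2 signal of this gene was 8.00, 7.83 and 7.52 in HCC70 with JQ1, against 8.75, 8.81 and 8.72 with vehicle. It was 5.99, 6.06 and 5.73 in MDA-MB-231 with JQ1, against 8.69, 8.77 and 8.86 with vehicle. The vehicle arrays of the lines overlapped, and the JQ1 arrays did not. NDC80 changed by -0.98 ± 0.12 in HCC70 (limma adjusted p = 9.8e-05) and -2.85 ± 0.12 in MDA-MB-231 (7.21-fold, limma adjusted p = 7.7e-09).

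The 11 genes of the inner kinetochore and centromere had the smallest medians of all roles, -0.32 in HCC70 and -1.40 in MDA-MB-231, against -0.55 and -2.05 for the other 25 measured genes. In HCC70, 5 of the 11 fell, and in MDA-MB-231 all 11 did. Over inner and outer kinetochore together, 6 of 12 fell in HCC70 (median -0.38) and 12 of 12 in MDA-MB-231 (median -1.40). The roles were named by hand and no test was made between them.

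The 5 that fell in HCC70 were CENPW, CENPA, CENPL, CENPM and CENPO. CENPW, a histone-fold protein that pairs with CENPT at the centromere, had log2 signals of 6.44, 6.38 and 6.05 in HCC70 with JQ1, against 7.19, 7.42 and 7.25 with vehicle. Its change was -0.996 ± 0.15 in HCC70 and -1.41 ± 0.15 in MDA-MB-231. CENPA changed by -0.69 ± 0.10 and -1.51 ± 0.10, and CENPL, which with CENPN binds the CENPA nucleosome, by -0.63 ± 0.11 and -1.40 ± 0.11. For CENPW, at 70.8%, the HCC70 change was the largest share of the MDA-MB-231 change among the 36 genes on the log2 scale. CENPM, a subunit of the group with CENPH, CENPI and CENPK, changed by -0.51 ± 0.11 in HCC70 and by -0.93 ± 0.11 in MDA-MB-231.

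CENPO, a subunit of the same complex as CENPQ and CENPU, had the smallest fall of all 36 genes in MDA-MB-231. Its log2 signal was 7.79, 7.71 and 7.54 in HCC70 with JQ1, against 8.06, 8.16 and 8.14 with vehicle. It was 7.71, 7.64 and 7.57 in MDA-MB-231 with JQ1, against 8.58, 8.31 and 8.18 with vehicle. The JQ1 arrays of the lines covered nearly the same range and lay below the vehicle arrays of both. CENPO changed by -0.44 ± 0.11 in HCC70 (limma adjusted p = 0.01) and by -0.72 ± 0.11 in MDA-MB-231 (1.64-fold, limma adjusted p = 0.00027).

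CENPK had the largest fall of the inner kinetochore in MDA-MB-231. On the log2 scale its signal was 7.75, 7.51 and 7.22 in HCC70 with JQ1, against 7.81, 7.82 and 7.74 with vehicle. It was 6.46, 6.17 and 5.80 in MDA-MB-231 with JQ1, against 8.10, 7.96 and 7.81 with vehicle. The HCC70 arrays overlapped at 7.75 and 7.74, and the MDA-MB-231 arrays did not overlap. CENPK fell by 1.81 ± 0.16 in MDA-MB-231, and its HCC70 value was -0.29 (95% interval -0.65 to 0.06, limma adjusted p = 0.26).

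CENPI and CENPN, both subunits of the constitutive centromere network, were the only 2 of the 36 genes with a positive value in HCC70. CENPI had log2 signals of 9.81, 9.75 and 9.62 in HCC70 with JQ1, against 9.76, 9.63 and 9.64 with vehicle, so the groups overlapped. In MDA-MB-231 it had 7.98, 7.82 and 7.60 with JQ1, against 9.44, 9.44 and 9.18 with vehicle, and the groups lay far apart. The HCC70 value was 0.05 (95% interval -0.19 to 0.30) and the MDA-MB-231 change -1.55 ± 0.11.

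CENPN had log2 signals of 9.91, 9.91 and 9.92 in HCC70 with JQ1, against 9.87, 9.89 and 9.91 with vehicle. The 3 JQ1 arrays were the higher ones, as for 17.8% of all genes, by a margin that shows only in the third decimal. In MDA-MB-231 the arrays read 7.54, 7.52 and 7.20 with JQ1, against 8.76, 8.94 and 8.85 with vehicle, with a change of -1.43 ± 0.10. The HCC70 value was 0.03 (95% interval -0.19 to 0.24), an interval that does not hold the change in MDA-MB-231.

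The other inner kinetochore genes that did not pass the test in HCC70 were CENPQ at -0.32 (95% interval -0.70 to 0.05), CENPU at -0.21 (-0.41 to 0.00) and CENPH at -0.13 (-0.47 to 0.22). In MDA-MB-231 they changed by -0.92, -1.24 and -1.20. CENPH ended at a mean of 4.46 in MDA-MB-231 with JQ1, below the lower quartile of all genes on those arrays (4.82). Its fall there, estimated at 2.29-fold (log2 95% interval -1.54 to -0.85), may be understated at such low signals. The value of CENPQ in HCC70 passed the test under 2 of 22 alternatives (array weights, and without HCC70 JQ1 replicate 1).

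Among the genes of spindle and chromosomes, 3 of 4 fell in HCC70 (median of the 4, -0.44) and 4 of 4 in MDA-MB-231 (median -1.68). TOP2A, the topoisomerase that untangles sister chromatids, had log2 signals of 10.31, 10.15 and 10.12 in HCC70 with JQ1, against 10.89, 10.83 and 10.83 with vehicle. The MDA-MB-231 arrays gave 9.33, 9.28 and 9.26 with JQ1, against 11.63, 11.49 and 11.61 with vehicle. The groups did not overlap in either line. TOP2A changed by -0.65 ± 0.08 in HCC70 and by -2.28 ± 0.08 in MDA-MB-231.

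HMMR, a hyaluronan receptor that also binds spindle microtubules, changed by -0.63 ± 0.10 in HCC70 and -2.04 ± 0.10 in MDA-MB-231. NUSAP1, a microtubule-bundling protein, changed by -0.24 ± 0.07 in HCC70 and -1.32 ± 0.07 in MDA-MB-231. Its HCC70 call (limma adjusted p = 0.03) was lost under 9 of 22 alternatives. Among them were leaving out JQ1 or vehicle replicate 2 or 3 of HCC70 (limma adjusted p of up to 0.11) and leaving out the 3 arrays numbered 3 (0.076). CKAP2, a microtubule-associated protein, had log2 signals of 9.01, 8.94 and 8.80 in HCC70 with JQ1, against 9.00, 8.99 and 8.95 with vehicle, so the groups overlapped. In MDA-MB-231 it had 7.93, 7.89 and 7.75 with JQ1, against 8.96, 8.99 and 8.81 with vehicle, without overlap. CKAP2 fell by 1.06 ± 0.09 in MDA-MB-231, and its value in HCC70 was -0.06 (95% interval -0.26 to 0.13).

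Of the 3 measured genes of cytokinesis and midzone, 2 fell in HCC70 (median of the 3, -0.74) and 3 in MDA-MB-231 (median -1.87). PRC1, which bundles antiparallel microtubules at the midzone, had log2 signals of 8.88, 8.74 and 8.72 in HCC70 with JQ1, against 9.93, 9.86 and 9.87 with vehicle. In MDA-MB-231 it had 7.73, 7.69 and 7.66 with JQ1, against 10.15, 10.03 and 9.82 with vehicle. The vehicle arrays of the lines overlapped and the JQ1 arrays did not. PRC1 changed by -1.11 ± 0.09 in HCC70 (limma adjusted p = 3.8e-06) and by -2.31 ± 0.09 in MDA-MB-231 (limma adjusted p = 5.5e-09). ECT2, the exchange factor that activates RhoA at the division site, changed by -0.74 ± 0.08 and -1.87 ± 0.08.

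RACGAP1, a subunit of centralspindlin that recruits ECT2, stood apart from PRC1 and ECT2 in HCC70. Its log2 signal was 5.55, 5.75 and 5.61 in HCC70 with JQ1, against 5.60, 5.92 and 5.44 with vehicle. It was 4.54, 5.26 and 5.01 in MDA-MB-231 with JQ1, against 5.93, 6.21 and 6.04 with vehicle. The HCC70 groups overlapped fully and the MDA-MB-231 groups did not overlap, though the spread of the MDA-MB-231 JQ1 arrays was wide. RACGAP1 was dim in HCC70, with every array below the median of all genes (6.16 to 6.26 on those arrays). With vehicle the HCC70 means were 5.65 for RACGAP1, 9.89 for PRC1 and 10.89 for ECT2. Whether the low signal hid a change of RACGAP1 in HCC70 was not tested. RACGAP1 fell by 1.13 ± 0.17 in MDA-MB-231 (limma adjusted p = 0.00025), and its HCC70 value was -0.02 (95% interval -0.39 to 0.35), with a sign that turned under centring and quantile normalization.

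DEPDC1, a DEP domain protein whose part in mitosis is less clear, had the next largest fall after PBK in MDA-MB-231. Its log2 signal was 8.44, 8.26 and 8.28 in HCC70 with JQ1, against 9.59, 9.58 and 9.41 with vehicle. It was 6.63, 6.09 and 5.99 in MDA-MB-231 with JQ1, against 9.13, 9.13 and 9.06 with vehicle. The groups did not overlap. DEPDC1 changed by -1.20 ± 0.14 in HCC70 (limma adjusted p = 5.1e-05) and by -2.87 ± 0.14 in MDA-MB-231 (limma adjusted p = 1.8e-08). It was the only one of the 36 genes with a second, dimmer transcript cluster, whose means differed by -0.93 in HCC70 and -1.53 in MDA-MB-231. The JQ1 means of that cluster (4.67 in HCC70 and 3.73 in MDA-MB-231) lay below the lower quartile of genes, so both falls may be understated.

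**Figure D3:**
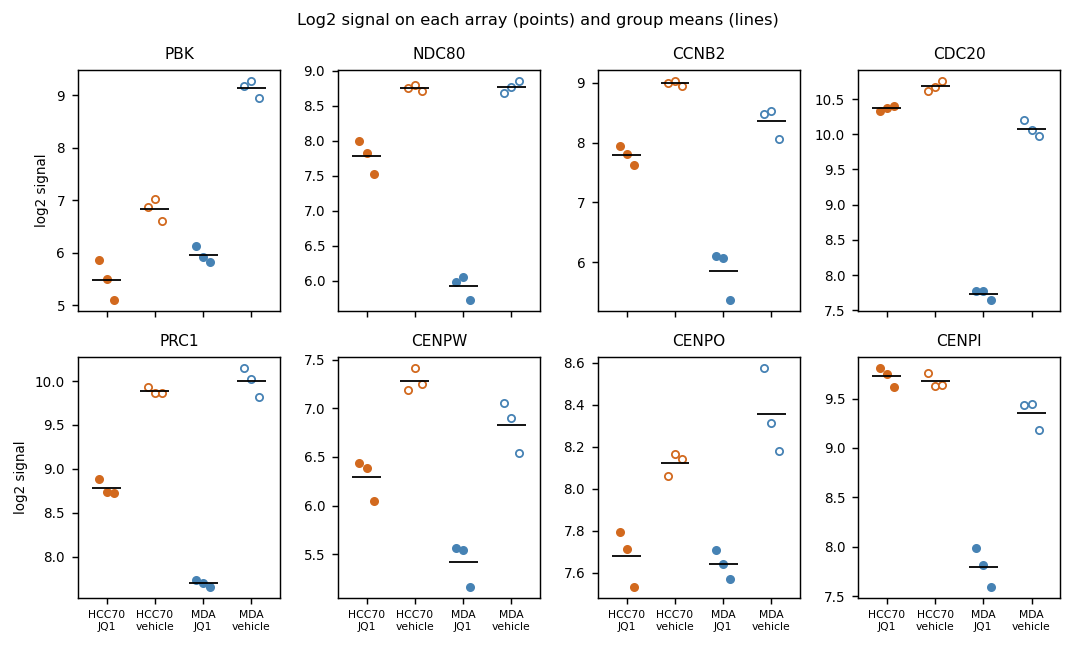
Log2 signal on each array (points; filled with JQ1, open with vehicle) and the group means (lines) for 8 genes in HCC70 and MDA-MB-231, each panel with its own vertical axis that does not start at 0. CDC20 and NDC80 show the wide gap in MDA-MB-231, CENPI shows overlapping HCC70 groups, and CENPO shows JQ1 arrays of both lines between 7.54 and 7.79.

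The order of the genes was similar in the lines although the falls differed in size. Among the 10 largest falls of each line, 8 genes were shared (PBK, CCNB2, DEPDC1, PRC1, CCNA2, CCNB1, NDC80 and PLK1). Across the 36 genes the changes in HCC70 and MDA-MB-231 had a Pearson r of 0.68 and a Spearman rho of 0.64. Over all 14884 genes these were 0.42 and 0.38. These are descriptions across genes of the same arrays, and genes are not independent replicates.

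The difference of the JQ1 effects (HCC70 minus MDA-MB-231) was tested directly and was positive for all 36 genes, meaning a smaller fall or no fall in HCC70. It passed the limma test for 32 of 36, against 9.02% of all genes, and 0 genes passed in the other direction, against 5.95%. The median difference was 1.36 on the log2 scale, against 0.00 over all genes. The HCC70 change was 30.1% of the MDA-MB-231 change at the median, from -3.37% for CENPI to 70.8% for CENPW. The difference passed for 22 of the 25 genes that fell in HCC70 and for 10 of the 11 that did not pass there.

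The difference was largest for CDC20 (2.04 ± 0.12, limma adjusted p = 7.9e-07), followed by NEK2 (1.88 ± 0.17), NDC80 (1.87 ± 0.17), PBK (1.84 ± 0.25) and CDK1 (1.75 ± 0.13). Of these, CDC20, NEK2 and CDK1 were among the smallest falls called in HCC70, while PBK and NDC80 were among the larger ones. It was smallest for CENPO (0.27 ± 0.15, 95% interval -0.06 to 0.61, limma adjusted p = 0.29), CENPW (0.41 ± 0.22, -0.06 to 0.88, 0.26), CENPM (0.42 ± 0.16, 0.07 to 0.78, 0.11) and CENPQ (0.60 ± 0.24, 0.07 to 1.13, 0.13), which did not pass. Next came ESPL1 (0.70 ± 0.16, limma adjusted p = 0.012), which passed. By role the median difference was 0.82 for the inner kinetochore, where 7 of 11 passed, and 1.41 for the other 25 measured genes, all of which passed. The inner kinetochore also had the smaller falls in MDA-MB-231 (median -1.40, against -2.05). As a share of the MDA-MB-231 change, its HCC70 changes spanned the whole range of the 36 genes, from -3.37% (CENPI) to 70.8% (CENPW). Without the 3 arrays numbered 3, CENPM (0.63) and CENPW (0.55) passed too, giving 34 of 36. CENPM also passed among genes above the median level, with array weights and without MDA-MB-231 vehicle replicate 3 (0.55), and CENPQ passed without HCC70 JQ1 replicate 3 (0.77).

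Under vehicle the lines differed gene by gene, with a small median difference and more genes called higher than lower in HCC70. Of the 36 genes, 15 (41.7%) were higher in HCC70 vehicle than in MDA-MB-231 vehicle, against 23.8% of all genes. Another 7 (19.4%) were lower, against 23.2%, and the median difference was 0.06. HMMR (1.46 ± 0.10), CENPN (1.04 ± 0.10) and PLK1 (0.88 ± 0.10) were the most positive. PBK (-2.31 ± 0.18), MAD2L1 (-0.92 ± 0.19) and BUB1 (-0.79 ± 0.08) were the most negative. By role, 2 of 4 checkpoint genes were lower in HCC70 and 1 was higher, while 5 of 11 inner kinetochore genes were higher and 1 was lower.

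Under JQ1 the balance moved further to HCC70. Here 33 of 36 genes were higher in HCC70 JQ1 than in MDA-MB-231 JQ1, against 24.5% of all genes, with a median difference of 1.27. The most positive were HMMR (2.86 ± 0.10), NEK2 (2.74 ± 0.12) and CDC20 (2.64 ± 0.09). HMMR had log2 signals of 8.66, 8.55 and 8.47 in HCC70 with JQ1, against 5.87, 5.57 and 5.64 in MDA-MB-231 with JQ1. In 11 of the 36 genes the mean of HCC70 with JQ1 lay above the mean of MDA-MB-231 with vehicle.

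PBK, CENPQ and CENPO did not follow. PBK was lower in HCC70 with JQ1 than in MDA-MB-231 with JQ1 (-0.47 ± 0.18, limma adjusted p = 0.042), against 21.8% of all genes called lower, and the arrays overlapped. That call was lost under 9 alternatives. They were all transcript clusters tested together, quantile normalization, leaving out the 3 arrays numbered 3 (-0.34), and leaving out replicate 2 or 3 of HCC70 JQ1, replicate 1 of either vehicle group, or replicate 1 or 2 of MDA-MB-231 JQ1. Without HCC70 JQ1 replicate 3 the value was -0.28 (limma adjusted p = 0.19). CENPQ had a value of -0.18 (95% interval -0.55 to 0.19) and CENPO one of 0.04 (-0.20 to 0.27), neither of which passed. These contrasts share arrays with those above, so they restate the same values from the other side.

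**Figure D4:**
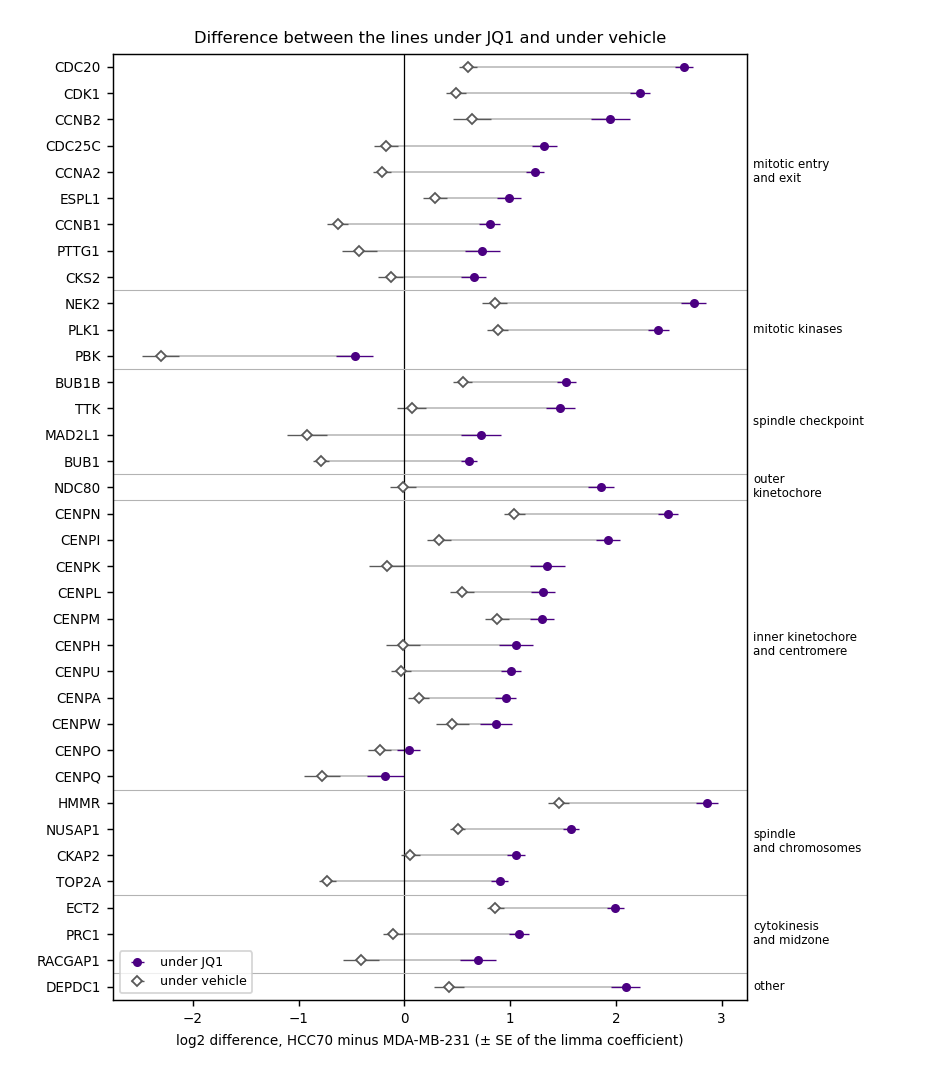
Log2 difference between the lines (HCC70 minus MDA-MB-231, x axis) for each of the 36 genes, grouped by role (y axis), under JQ1 (filled circles) and under vehicle (open diamonds), with bars of 1 standard error. The diamonds lie on both sides of 0 and each circle lies to the right of the diamond of its gene, with PBK and CENPQ still below 0.

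Other genes of the mitotic machinery, listed by role, were read from the same limma fit. Of 19 measured genes (28 listed) of the remaining kinetochore and centromere, 5 fell and 1 rose in HCC70 (median -0.16) and 16 fell in MDA-MB-231 (median -1.20). Over all genes 12.5% fell and 9.18% rose in HCC70, and 17.0% fell and 10.8% rose in MDA-MB-231. SGO1, shugoshin, which protects centromeric cohesin, changed by -0.88 ± 0.11 in HCC70 and -2.66 ± 0.11 in MDA-MB-231, and HJURP, the chaperone that deposits CENPA, by -0.60 ± 0.08 and -2.22 ± 0.08. MAD1L1, the partner of Mad2 at kinetochores, was the one that rose in HCC70 (0.47 ± 0.09). Of 13 measured other spindle and cytokinesis genes (17 listed), 8 fell in HCC70 (median -0.49) and 12 in MDA-MB-231 (median -1.93). SPAG5, the spindle protein astrin, fell by 2.55 ± 0.10 in MDA-MB-231, and the proliferation antigen MKI67 changed by -0.66 ± 0.09 in HCC70 and -2.21 ± 0.09 in MDA-MB-231. CKAP2L, a spindle pole protein, fell by 0.71 ± 0.11 in HCC70.

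The lists of cohesin and of the anaphase-promoting complex had medians nearer 0 than the 36 genes in both lines. Of 11 measured cohesin genes (13 listed), 3 fell and 1 rose in HCC70 (median -0.09) and 7 fell in MDA-MB-231 (median -0.42). The acetyltransferase ESCO2 and sororin (CDCA5), which secure cohesion in S phase, fell by 1.33 and 1.24 in MDA-MB-231. In HCC70 the cohesin subunits STAG1 and STAG2 each fell by 0.55, and the acetyltransferase ESCO1 rose by 0.34. Of 17 measured genes (18 listed) of the anaphase-promoting complex and its regulators, 2 fell and 2 rose in HCC70 (median -0.03), and 7 fell and 1 rose in MDA-MB-231 (median -0.24). The HCC70 counts of this complex are close to the shares of all genes. The inhibitor FBXO5 fell by 1.31 in MDA-MB-231, the subunit CDC23 changed by -0.57 in HCC70 and -0.62 in MDA-MB-231, and the subunit ANAPC16 rose by 0.38 and 0.35. In HCC70 the subunit CDC26 fell by 0.41 and the ubiquitin-conjugating enzyme UBE2S rose by 0.58. Both measured condensin genes (8 listed) fell in both lines, SMC2 by 1.23 in HCC70 and 1.43 in MDA-MB-231, and SMC4 by 0.36 and 1.31. MZT1, the only measured gene of 17 in the gamma-tubulin ring and augmin list, had a value of -0.06 in HCC70 and fell by 0.94 in MDA-MB-231.

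Set beside the promoters, the genes with a CHR or its variant within 50 bases of the start had a median change of -0.69 in HCC70 and -1.87 in MDA-MB-231 (17 genes). The 13 genes without one in their first listed window had -0.33 and -1.81. Of these 13, CDK1 and CDC25C had one in another listed window. CENPI and CKAP2, also among the 13, had windows at start sites 2854 and 510 bases downstream of the gene's first annotated base. Their HCC70 values were 0.05 and -0.06. The range with a match ran from -1.20 to 0.03 in HCC70 and that without ran from -1.01 to 0.05. These ranges overlap almost wholly, although the HCC70 medians lie apart. NDC80, CCNB2 and DEPDC1 had a match there, and so did CENPN. A match is a run of letters and not a measured binding site, and no test was made.

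**Figure D5:**
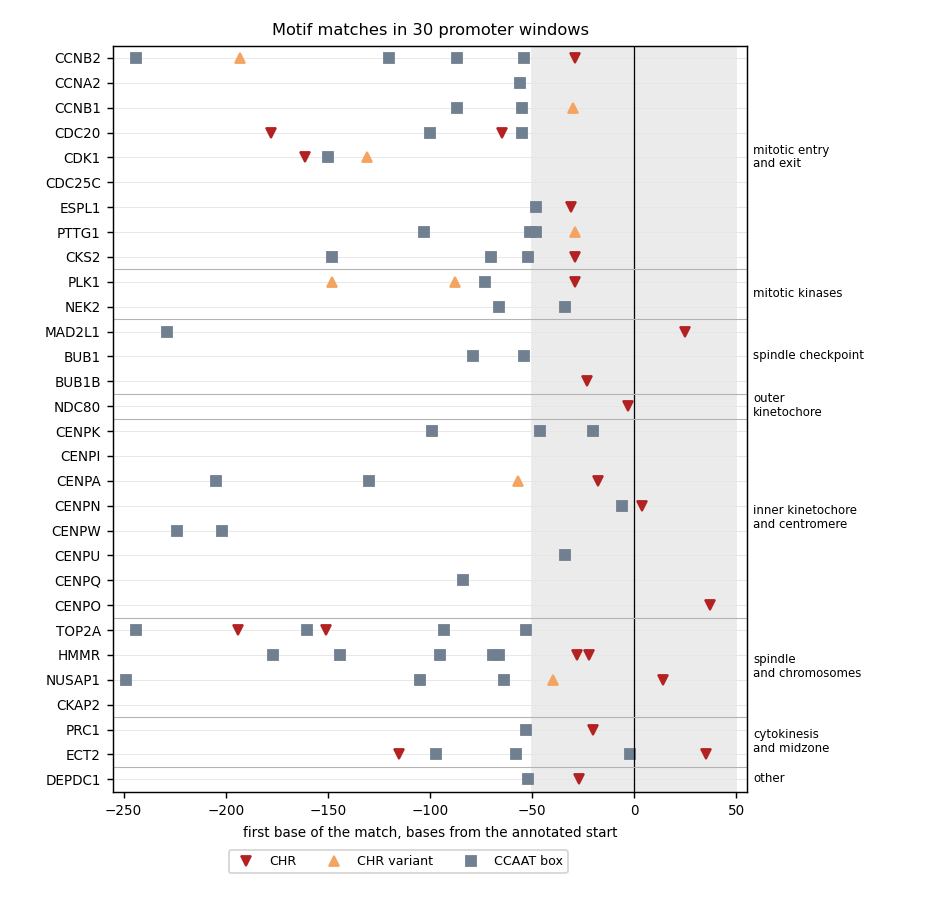
Position of the first base of each CHR, CHR variant and CCAAT box match (x axis, bases from the annotated start; shaded within 50 bases) in the promoters of 30 measured genes, grouped by role (y axis). CHR matches gather just before the start in genes such as CCNB2, PLK1, PRC1 and DEPDC1. The windows shown for CDC25C, CENPI and CKAP2 hold no match, and that of CDC25C is the first of 4 listed.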

How the data were processed

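RNA (150 ng per sample) was hybridised to Human Gene 2.0 ST arrays. The deposited values are log2 signals of transcript clusters; RMA, oligo and limma are named, without versions, per the submitters' processing notes. The sources used here do not name the genome build they rest on. Of 53617 clusters 16098 had exactly 1 gene symbol, and the other 37519, with no symbol or several, were left out. The brightest of a gene's clusters was kept, which left 14884 genes. A gene is called measured where it had a cluster with its symbol alone. No filter on low signals was applied. Columns of other series numbered 0.

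With limma 3.58.1 (lmFit, eBayes) under R 4.3.3 and statmod 1.5.0, the 12 arrays were fitted together by their 4 groups, since the labels state no covariate. Tests were two-sided, with Benjamini-Hochberg adjustment over all genes and calls at an adjusted p under 0.05. JQ1 was set against vehicle within a line, the JQ1 effect in HCC70 against that in MDA-MB-231, and HCC70 against MDA-MB-231 under JQ1 and under vehicle. Where a group mean lay below the lower quartile of gene means, the change may be understated. The procedure was also run on simulated data, but no outcome of that run is given here. The number of arrays limits the precision.

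Same-numbered JQ1 and vehicle arrays of MDA-MB-231 had deviations from their group means that correlated at 0.155, 0.121 and 0.362. Unlike-numbered ones correlated at -0.25 to 0.121. The value of 0.362 is that of the arrays numbered 3, which stood apart in both groups. Whether the numbers pair samples is not stated by the labels and is not settled by these values. The main fit has no term for pairs, and the replicate number entered as a block in 1 alternative only.

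Values on every array are given for the largest and smallest fall of each role in MDA-MB-231 and for some further genes of the comparisons. Changes are given for the 5 largest falls and every uncalled gene of each JQ1 contrast, for the 5 most and 5 least positive differences, for 3 genes each way between the lines, and for up to 2 genes each way of other lists. The changes of further members were added with their values known. Members, roles, lists and this rule were chosen with earlier results of these data known. Promoters were the first listed window of a gene, for genes with several. The 22 alternatives comprise other fits, scalings and filters, leaving out each array, and leaving out the 3 arrays that stood apart, which was added after seeing the data.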

Additional observations from a re-analysis of the deposited data

Results flagged for a closer look

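The JQ1 effect differed between the lines, by the limma test of the difference itself, for 32 of the 36 measured mitotic genes. Over all genes, 9.02% passed with a positive difference and 5.95% with a negative difference. In each of the 32 the value with JQ1 relative to vehicle was less negative, or positive, in HCC70 than in MDA-MB-231. The largest differences (HCC70 minus MDA-MB-231, log2) were those of CDC20 at 2.04, NEK2 at 1.88, NDC80 at 1.87, PBK at 1.84 and CDK1 at 1.75 (1.745), and the smallest that passed was ESPL1 at 0.70 (0.699).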

How the results depend on the processing

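Leaving out 1 array at a time gave 20 to 26 genes that fell in HCC70 and 36 in MDA-MB-231, 32 to 33 with a positive difference of the effects, 33 higher in HCC70 under JQ1, and 11 to 16 higher and 6 to 9 lower under vehicle. The other alternatives gave 20 to 27, 33 to 36 (33 among genes above the median level, where fewer were tested), 30 to 34, 30 to 33, 12 to 16 and 6 to 9. With the replicate number as a block the counts that fell were 24 in HCC70 and 36 in MDA-MB-231. In HCC70 the deviations of same-numbered arrays correlated at only -0.059 to 0.07. NUSAP1 passed in HCC70 without the block (limma adjusted p = 0.03) but had a limma adjusted p of 0.065 with it. The single gene lower in HCC70 under JQ1, PBK, became 0 with all transcript clusters, after quantile normalization (0) and without the 3 arrays numbered 3 (0), and 0 to 2 when 1 array was left out. The median difference between the lines under vehicle was 0.06 and became -0.01 after quantile normalization. RACGAP1 in HCC70 (-0.02) became 0.028 after quantile normalization, 0.05 after centring and 0.047 with array weights, and ran from -0.125 to 0.115 when 1 array was left out. CKAP2 in HCC70 (-0.06) became 0.005 after centring. CENPO between the JQ1 groups (0.04) became -0.072 after quantile normalization and ran from -0.018 to 0.111 when 1 array was left out. Over all genes, array weights gave 5110 calls in HCC70 in place of 3229. The cause of these shifts was not tested. In MDA-MB-231 the changes of all 36 genes kept direction and call under the 22 alternatives, except that CENPH, PTTG1 and RACGAP1 were not tested among genes above the median level.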
